A study of Mus musculus with 9 samples.

Results

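The livers of mice that received the compound 326E on CDAA-HFD, a high-fat diet of free amino acids without choline, were set against the livers of mice on chow, gene by gene, in RNA sequencing data. The question was which genes stayed away from their chow level under the compound and which went beyond it. Genes with at least 0.5 FPKM (reads scaled to gene length and library size) in at least 3 of these 6 libraries were taken, which gave 12947 of the 54532 genes in the deposited table. In the library that decided, Pik3r6, just inside this limit, stood at 0.5 FPKM and 1810062G17Rik, just outside it, at 0.4995 FPKM. Of the genes taken, 12435 reached 0.5 FPKM in at least 1 library of each group, 421 reached it only in 326E libraries and 91 only in chow libraries. A gene that passed only through 1 group is high there by that choice, so the count of such members is given beside each list that holds 2 or more.

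All mice were male wild-type C57BL/6J. The chow group received chow and vehicle (3 libraries), the 326E group CDAA-HFD and 326E at 30 mg/kg for 6 weeks (3 libraries), and the remaining group CDAA-HFD and vehicle (3 libraries). The diet and the compound therefore both differ between the 326E and chow groups, and no library of chow with 326E was analysed here. The vehicle group on CDAA-HFD was used to place each gene, that is, to say on which side of chow the diet with vehicle lay, and its libraries entered the shared estimate of the spread. Library titles of every group begin with MCD, which often stands for a methionine- and choline-deficient diet, while the protocol in the labels names CDAA-HFD or chow. The labels do not say that each library came from its own animal, so p-values measure the spread between these samples.

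CDAA-HFD produces a fatty, inflamed and scarred liver, because hepatocytes short of choline cannot export fat in lipoproteins. Per the series title, 326E acts on the enzyme ACLY (ATP citrate lyase) and on the nuclear receptor PPARα. ACLY cuts citrate in the cytosol into acetyl-CoA, the carbon source for fatty acid and cholesterol synthesis. PPARα is bound by fatty acids and fibrate drugs in hepatocytes and switches on genes that take up, activate and oxidize fatty acids in peroxisomes, microsomes and mitochondria. In rodents its best-known targets are the Cyp4a omega-hydroxylases and peroxisomal beta-oxidation enzymes. Stellate cells lay down the collagen of liver scars, and macrophages that take up lipid express genes such as Gpnmb and Trem2.

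Assigned reads numbered 13275888 to 17058316 per library. Hepatocyte markers were present in all 6 libraries, with a summed level of 73277 to 78552 FPKM in chow and 42656 to 54719 FPKM in 326E. Albumin (Alb) stood at 34911, 25921 and 34467 FPKM in chow and 16456, 18250.4 and 25782 FPKM in 326E. In bulk liver, fewer cells of a type and less RNA per cell cannot be told apart. Mitochondrial genes took 5.94% to 8.46% of reads in chow and 5.99% to 7.31% in 326E. Spearman correlations across the genes taken were 0.902 to 0.93 between chow and 326E libraries, 0.964 to 0.975 within chow and 0.965 to 0.977 within 326E. The deposited FPKM were already scaled between libraries: their library sizes were 0.828 to 0.86 of the assigned reads in chow and 1.007 to 1.151 in 326E. Counts scaled to the total assigned reads are given beside some of the lists whose counts moved.

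The 326E livers remained far from chow. Of the 12947 genes, 3642 (28.1%) were called at an adjusted p under 0.05 (limma, Benjamini-Hochberg over all genes taken), 1898 of them higher (14.7% of the genes) and 1744 lower (13.5%). At least 2-fold changes on the log2(FPKM+1) scale made up 502 of the higher and 357 of the lower genes. The 3 values of 326E and the 3 of chow did not overlap in 3623 of the 3642 called genes, against 45.4% of all genes taken. The median of all genes was -0.04. Scaled to total assigned reads, 4437 genes were called, and the share of higher genes among the called was 86.5% in place of 52.1%, and the median of all genes was 0.23. Without 326E replicate 1 or 2 the lower calls numbered 1126 and 1065, with 2 libraries of 326E left.

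Most called genes lay on the vehicle's side of chow. A gene was placed as away from chow where the diet with vehicle was called in the same direction, as past chow where vehicle was called on the opposite side and 326E was called against both groups, and as changed under 326E alone where vehicle was not called against chow but 326E was called against both. Away from chow were 2935 genes (80.6% of those called), 1552 higher and 1383 lower. Past chow were 31 genes (0.851%), 24 higher and 7 lower. Changed under 326E alone were 201 genes (5.52%), 143 higher and 58 lower. The remaining 475 called genes (13.0%) met none of these rules. The comparisons share libraries, so these placements are counts and carry no test of their own. Where vehicle was not called against chow, the 2 groups were not shown to be alike.

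Among the genes away from chow, 326E was nearer to chow than vehicle, by a called difference, in 453 of the 1552 higher and 110 of the 1383 lower genes. It was farther from chow than vehicle in 40 higher and 22 lower genes. In the remaining 1059 and 1251, 326E and vehicle were not called apart, which does not show that they were alike. Of 992 genes that the diet with vehicle raised at least 2-fold, a median of 61.1% of the log2 difference was left under 326E (quartiles 50.3% and 71.2%). Of 488 genes that it lowered at least 2-fold, a median of 72.1% was left (quartiles 49.7% and 92.9%). Both sets were chosen by their vehicle difference, which is also the divisor of these shares and uses the same chow libraries. That choice alone can lower the share left. The filter used only chow and 326E libraries. The share for raised genes therefore leaves out any gene high in vehicle that stood below the filter in both chow and 326E. In all, 294 genes lay outside both other groups under 326E, being past chow, changed under 326E alone or farther than vehicle, with 207 higher and 87 lower.

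**Figure D1:**
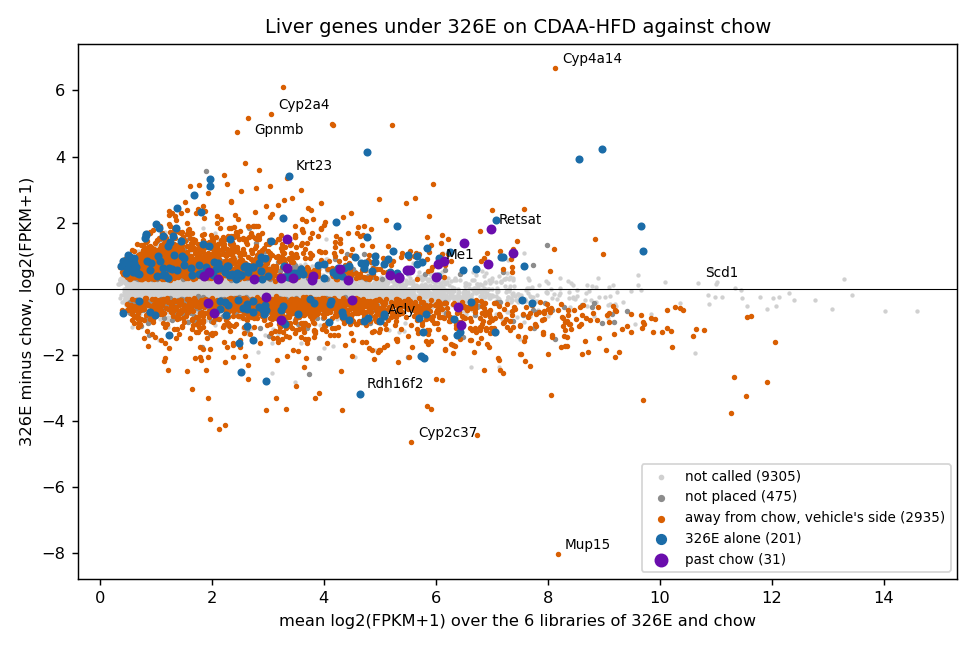
Change of each of the 12947 genes between 326E and chow (vertical axis, difference of log2(FPKM+1)) against its mean level in the 6 libraries (horizontal axis, mean log2(FPKM+1)), coloured by placement. The 2935 genes away from chow spread to both sides, the 201 genes changed under 326E alone and the 31 past chow lie mostly above 0, and 9305 genes were not called.

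Most genes of fatty acid omega-hydroxylation and acyl-CoA hydrolysis rose over chow. Of 15 such genes taken, 11 rose, 1 fell and 3 did not pass, and their median was 1.38 against -0.04 for all genes and -0.05 for the same list in vehicle. Of the 12 called, 6 lay on the vehicle's side of chow, 2 were past chow and 4 were changed under 326E alone. Cyp4a14, a P450 enzyme that adds a hydroxyl group to the far end of fatty acids, stood at 55.9, 8.75 and 37.2 FPKM in chow, 177, 127 and 101 FPKM in vehicle and 2282, 2927 and 3366 FPKM in 326E livers. Every 326E library lay above every other library. The difference from chow was 6.67 ± 0.55 (log2(FPKM+1), SE; adjusted p = 9.47e-05), the largest rise among the named genes. Its relative Cyp4a10 stood at 131, 44.3 and 149 FPKM in chow, 211, 198 and 152 in vehicle and 1169, 1413 and 1918 in 326E, a rise of 3.93 ± 0.41 over chow (adjusted p = 0.000267). Unlike Cyp4a14, Cyp4a10 was not called in vehicle against chow (0.95 ± 0.41, limma adjusted p = 0.0933). It therefore counted among the genes changed under 326E alone, although every vehicle library lay above every chow library. Cyp4a10 lost this placement in 3 of 19 settings: with quantile normalization, scaled to total assigned reads, and without chow replicate 3. Cyp4a31 rose by 4.96 and Cyp4a32 by 1.15, while Cyp4f14, an omega-hydroxylase of another subfamily, fell by 1.81 on the log2 scale. Cyp4a genes are near-identical copies, as are the Acot1 to Acot4 genes, so the split of reads among them is uncertain.

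Acyl-CoA thioesterases release free fatty acids from their CoA esters. Acot2, the mitochondrial form, stood at 2.89, 1.58 and 2.11 FPKM in chow, 20.3, 19.3 and 11.2 FPKM in vehicle and 86.2, 132 and 83.7 FPKM in 326E. The 3 groups did not overlap and rose in that order, with 4.98 ± 0.26 between 326E and chow (adjusted p = 9.63e-06). Acot1, the cytosolic form, was at 7.41, 3.29 and 6.76 FPKM in chow, 9.0, 13.5 and 3.51 FPKM in vehicle and 101, 120.3 and 124 FPKM in 326E, a rise of 4.15 ± 0.40 over chow (adjusted p = 0.000173). Chow and vehicle overlapped for Acot1 and 326E stood apart from both. The peroxisomal forms Acot3 and Acot4 rose by 3.81 and 2.02.

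**Figure D2:**
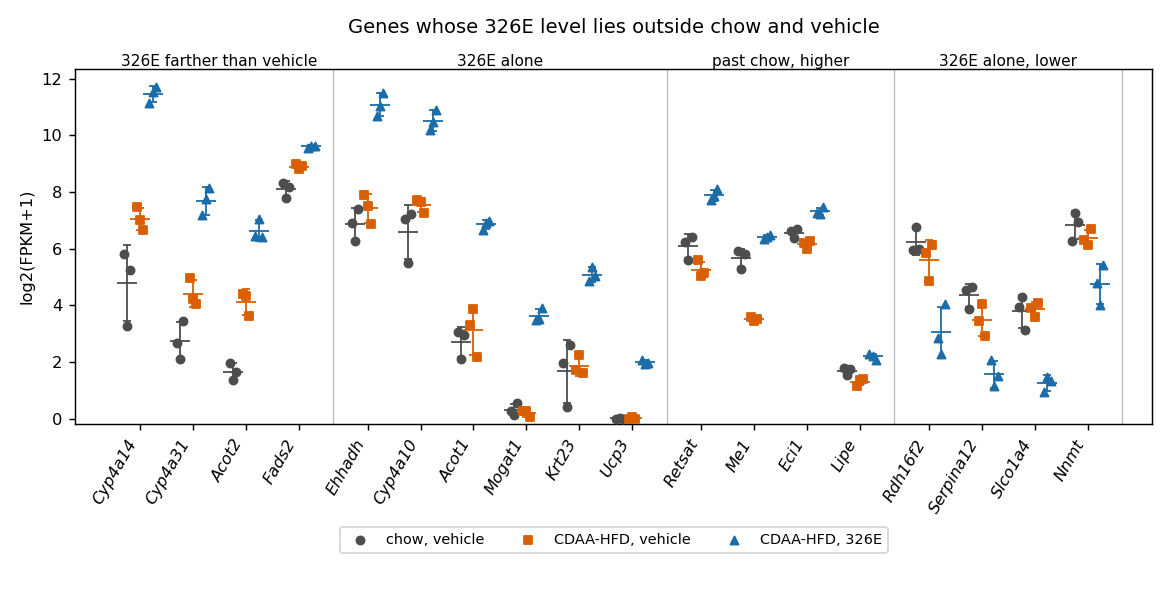
Level of 18 genes that lay beyond chow and vehicle under 326E (log2(FPKM+1) for each library, with mean and SD of 3 libraries per group), in panels for genes farther than vehicle, changed under 326E alone, past chow, and lower than both groups. In Cyp4a14 the 326E points reach 2282 to 3366 FPKM, and in Me1 the vehicle points lie below all chow points while the 326E points lie above them.

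Of 29 genes of peroxisomal oxidation and biogenesis, 8 rose, 5 fell and 16 did not pass, with a median of -0.05. Scaled to total assigned reads, 14 rose and 2 fell, with a median of 0.25. Ehhadh, which carries out the middle steps of peroxisomal beta-oxidation, stood at 119, 76 and 169 FPKM in chow, 235, 183 and 115 FPKM in vehicle and 1661, 2109.8 and 2899.9 FPKM in 326E. The 326E libraries all exceeded the highest other library several times over, and the rise over chow was 4.22 ± 0.35 (adjusted p = 9.46e-05). Acaa1b, the thiolase that ends each cycle, rose by 1.90, and Pex11a, which drives peroxisome division, by 1.89. Ehhadh, Acaa1b, Pex11a and the enoyl-CoA isomerase Ech1 (0.96) were all changed under 326E alone. Against these, catalase (Cat), which breaks down hydrogen peroxide, fell by 0.91 on the log2 scale, with 1416, 1246 and 1327 FPKM in chow, 458, 442 and 540.0 in vehicle and 645, 636 and 862 in 326E. Catalase stayed on the vehicle's side of chow, as did the CoA diphosphatase Nudt7 (-1.20), and quantile normalization ended the call of catalase.

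Of 21 mitochondrial fatty acid oxidation genes, 13 rose, 0 fell and 8 did not pass, with a median of 0.56 in 326E and -0.14 in vehicle, and 1 member passed the limit only through 1 group. Changed under 326E alone were 9 of the 13, and 3 were past chow. Hadha and Hadhb, the subunits of the trifunctional protein that carries out the last steps of each cycle on long chains, rose by 0.76 ± 0.12 and 1.0 ± 0.19. Decr1, needed to oxidize unsaturated fatty acids, stood at 51.6, 38.1 and 53.5 FPKM in chow, 42.6, 41.3 and 44.6 FPKM in vehicle and 81.6, 94 and 97.1 FPKM in 326E, a rise of 0.93 ± 0.14. The long- and medium-chain dehydrogenases Acadl and Acadm rose by 0.96 and 0.58, and the carnitine carrier Slc25a20 by 0.79. Cpt1a, the outer-membrane gate of the pathway, was not called (0.31 ± 0.10, 95% interval 0.07 to 0.54). Cpt2 rose by 0.61, a call that ended without chow replicate 1 or 2, without 326E replicate 2 or 3, and without the filter on low values.

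Ucp3, a mitochondrial carrier usually of muscle, was close to 0 in chow (0, 0.0246 and 0 FPKM) and in vehicle (0, 0.0314 and 0 FPKM), and stood at 3.16, 2.77 and 2.95 FPKM in 326E. It was changed under 326E alone, by 1.97 ± 0.09 (adjusted p = 3.57e-06), and passed the filter only through the 326E libraries. So did, among others, Mogat1, Gpnmb, Mmp12, Trem2, Timp1, Mmp13, Fbp2 and Gm15441, which are high in 326E by that choice. Ucp2, a relative of Ucp3, rose by 2.06 and lay on the vehicle's side of chow. Of 32 nuclear-encoded subunits of the respiratory chain and ATP synthase, 0 rose, 9 fell and 23 did not pass, with a median of -0.32. The 9 include all 4 subunits of succinate dehydrogenase, from -0.65 for Sdhb to -0.37 for Sdha. Scaled to total assigned reads, 0 of the 32 fell and their median was 0.03.

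Of 31 further known PPARα targets, 18 rose and 0 fell, with a median of 0.92, and 2 of them passed only through 1 group. Of the 18, 13 lay on the vehicle's side of chow. Cd36, a fatty acid receptor at the cell surface, stood at 18, 24.7 and 17.3 FPKM in chow, 174, 162 and 180.1 FPKM in vehicle and 154, 181 and 224 FPKM in 326E. Vehicle and 326E overlapped for Cd36, and both were far above chow (3.16 ± 0.17 for 326E, adjusted p = 1.2e-05). Cidec, which fuses lipid droplets, stood at 2.0, 1.37 and 3.83 FPKM in chow, 37.2, 32.6 and 17.9 in vehicle and 36.6, 39.2 and 24.5 in 326E, with the same order. Pdk4, the kinase that shuts off pyruvate oxidation, stood at 2.12, 1.39 and 2.0 FPKM in chow, 79.5, 52.7 and 33.1 in vehicle and 22.2, 43.8 and 12.5 in 326E (3.10 ± 0.42, adjusted p = 0.000931). Vnn1, a pantetheinase, rose by 2.74 ± 0.34, and the fatty acid transporter Slc27a1 by 3.06 ± 0.13. Fgf21, a hormone that hepatocytes release in fasting, was at 1.06, 0.0812 and 2.78 FPKM in chow, 8.48, 5.38 and 3.78 in vehicle and 4.11, 3.61 and 3.51 in 326E, and its call (adjusted p = 0.0494) was lost in 15 of 20 other settings. Ppara itself stood at 64.7, 36.1 and 47.4 FPKM in chow and 42.4, 49.6 and 52.8 FPKM in 326E, a difference of 0.0 ± 0.24 with a 95% interval of -0.55 to 0.55, and was not called.

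Further genes of other roles rose under 326E alone. Mogat1, which makes diacylglycerol, stood at 0.199, 0.0991 and 0.467 FPKM in chow, 0.196, 0.221 and 0.0373 FPKM in vehicle and 10.2, 10.5 and 13.9 FPKM in 326E (3.32 ± 0.15, adjusted p = 3.57e-06). Krt23, a keratin that injured hepatocytes and bile duct cells can express, stood at 2.92, 0.345 and 5.06 FPKM in chow, 2.27, 3.74 and 2.04 in vehicle and 27.8, 40 and 32.2 in 326E (3.42 ± 0.46, adjusted p = 0.000921). The 326E libraries lay above both other groups for either gene. Summed over the whole bile duct list, markers stood at 195 to 276 FPKM in chow, 803 to 1028 FPKM in vehicle and 510 to 734 FPKM in 326E, a list in which 6 of 14 genes rose, and their part in the Krt23 value was not tested. Hsd17b11, a lipid-droplet dehydrogenase chosen after its values were seen, stood at 73.2, 54.7 and 67.9 FPKM in chow, 73, 75.6 and 78.8 in vehicle and 227, 300.5 and 322 in 326E. The monoacylglycerol lipases Abhd6 and Mgll, the first also chosen afterwards, rose by 1.56 and 1.03. Fbp2, the muscle form of fructose bisphosphatase, likewise chosen afterwards, stood at 0.316, 0 and 0.062 FPKM in chow, 0.333, 0.536 and 0.079 in vehicle and 5.62, 5.5 and 4.33 in 326E. The calls of these genes against chow held in every other setting that tested them.

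The placement past chow held the fewest genes and was unstable. It had 24 genes higher than chow with vehicle below chow, and 7 the other way. Only Me1 kept this placement in all 19 settings that could give it, and 33 of the 143 higher and 7 of the 58 lower genes changed under 326E alone kept theirs. Leaving out chow replicate 3, for instance, left 8 higher genes past chow.

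Me1, malic enzyme, supplies NADPH for fatty acid synthesis. Its level was 59.1, 38.2 and 54.6 FPKM in chow, 11, 10 and 10.4 FPKM in vehicle and 80, 85.1 and 88.9 FPKM in 326E livers. Each library of vehicle lay below every chow library and each of 326E above, and 326E exceeded chow by 0.75 ± 0.15 (adjusted p = 0.0062). Retsat, which reduces a double bond of retinol, stood at 74.2, 47.7 and 84.7 FPKM in chow, 47.1, 31.7 and 34.3 FPKM in vehicle and 210.0, 231 and 272 FPKM in 326E. It had the largest rise over chow of this class, 1.81 ± 0.23 (adjusted p = 0.000625). The call against chow held in every setting run, but vehicle was no longer called below chow without chow replicate 1 or 3, without vehicle replicate 2 or 3, and under 2 other scalings.

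The other genes past chow include enzymes of lipid metabolism. Eci1 (enoyl-CoA isomerase) and Etfdh (which passes electrons from fatty acid oxidation to the respiratory chain) rose over chow by 0.76 and 0.56, with vehicle at -0.41 and -0.56. Lipe, hormone-sensitive lipase, rose by 0.50, Lpcat3, which places polyunsaturated chains in phospholipids, by 0.57, and the peroxisomal thioesterase Acot8 by 0.62. Chdh, the first enzyme that turns choline into betaine, rose by 0.35, a call lost in 9 settings. All 6 of these changes are less than 2-fold. Cyp4a12b stood at 79.9, 30.5 and 67.9 FPKM in chow, 9.11, 28.2 and 9.89 in vehicle and 125, 156 and 157 in 326E, and its call was lost in 8 settings. Among the 7 genes past chow in the other direction, Sult1a1, a phenol sulfotransferase, stood at 109.7, 169 and 113 FPKM in chow, 169, 204 and 229 in vehicle and 46.7, 58.6 and 74.6 in 326E. Sult1a1 was thus highest in vehicle and lowest in 326E (-1.11 ± 0.22 against chow, adjusted p = 0.00568).

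**Figure D3:**
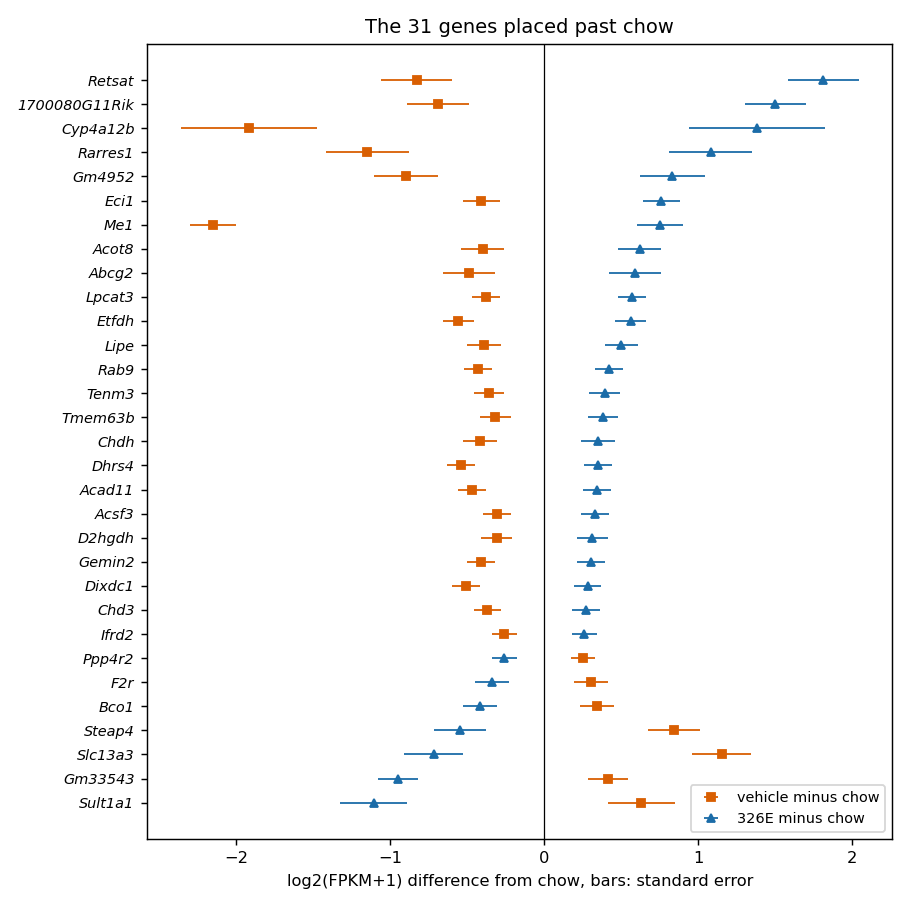
Difference from chow (log2(FPKM+1), with standard error) of the 31 genes past chow, for vehicle and for 326E. Retsat (1.81), 1700080G11Rik (1.5) and Cyp4a12b (1.38) rise most over chow under 326E, and Me1 combines a fall of 2.15 in vehicle with a rise of 0.75.

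On mm10, Me1 (ENSMUSG00000032418, chromosome 9, 86581371 to 86695953), Ehhadh (ENSMUSG00000022853, chromosome 16, 21761287 to 21787807) and Krt23 (ENSMUSG00000006777, chromosome 11, 99477974 to 99493137) are whole-gene spans. Retsat (chromosome 6, 72598475 to 72608425, plus strand) starts next to Elmod3 (72565922 to 72598413, minus strand), which also rose, from 4.9, 4.14 and 4.42 FPKM in chow to 9.19, 7.9 and 8.08 FPKM in 326E (0.77 ± 0.15). Chdh (chromosome 14, 30009023 to 30040527, plus strand) likewise starts next to Il17rb (29996135 to 30008896, minus strand), which rose by 0.74 ± 0.10. These neighbours were looked up after the values were seen.

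Because PPARα is a named target and several classes moved together, promoter windows were searched for 3 short motifs. The windows span 250 bases before to 50 after each start in RefSeq (GRCm38.p6), and 85 of the 143 genes higher under 326E alone, 22 of the 24 higher past chow and 1159 of the 1552 higher away from chow had an entry. The motif of a PPAR response element, a direct repeat spelled AGGNCANAGGNCA, occurred on either strand in 1 of 107 windows of the genes higher under 326E alone (0.935%), 0 of 30 past chow and 5 of 1549 away from chow (0.323%). The genes taken held it in 0.277% of their 11911 windows, and all promoters of the table in 0.381%. The AP-1 motif TGANTCA occurred in 2.8%, 13.3% (4 of 30 windows) and 7.55% of the same classes, in 5.46% of windows of the genes taken and in 7.81% of all windows. Some AP-1 sites were counted more than once. Overlapping windows of Elmod3, under 326E alone, hold the same site, which is also the match of Retsat, past chow. Chdh, past chow, and Il17rb, away from chow, likewise share a site. The sterol regulatory motif TCACNCCAC occurred in 1.87%, 3.33% and 0.968%, in 1.21% of windows of the genes taken and in 1.24% of all windows. These windows hold only the bases nearest the start, so the shares do not speak to more distant sites.

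Each of 4 classes of change is shown by 1 excerpt that holds a match, in capitals, with 25 bases on each side, 5′ to 3′ on the strand of the gene.
Ehhadh, higher under 326E alone, sterol regulatory motif at -171 from the start, chr16:21787972-21788030, minus strand: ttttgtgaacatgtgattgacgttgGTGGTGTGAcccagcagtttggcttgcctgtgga
Acot8, higher past chow, AP-1 motif at -163, chr2:164805013-164805069, minus strand: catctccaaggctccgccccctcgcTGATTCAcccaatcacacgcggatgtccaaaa
Bco1, lower past chow, direct repeat at -56, chr8:117095784-117095846, plus strand: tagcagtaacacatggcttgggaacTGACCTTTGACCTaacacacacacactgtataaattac
Mmp13, higher away from chow, AP-1 motif at -35, chr9:7272454-7272510, plus strand: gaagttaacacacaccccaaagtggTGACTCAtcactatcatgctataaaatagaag
Bco1, which cleaves beta-carotene, carries the direct repeat and fell, from 3.53, 3.16 and 3.58 FPKM in chow to 2.2, 2.0 and 2.76 FPKM in 326E, a call lost in 5 settings. Mmp13, an interstitial collagenase, rose from 0.174, 0.116 and 0.0341 FPKM in chow to 4.62, 4.72 and 3.97 FPKM in 326E. In Ehhadh and Bco1 the match lies on the other strand, and the capitals show its reverse complement. A match is a run of letters and not a shown binding site.

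Genes lower than both other groups were fewer. Rdh16f2, of the retinol dehydrogenase family, stood at 61.7, 107 and 62.5 FPKM in chow, 56.8, 27.8 and 69.6 FPKM in vehicle and 6.22, 3.85 and 15.4 FPKM in 326E. Its fall of 3.18 on the log2 scale was the largest under 326E alone (adjusted p = 0.00141). Serpina12, the serpin vaspin, stood at 22.2, 13.8 and 23.9 FPKM in chow, 9.91, 15.6 and 6.65 in vehicle and 3.21, 1.2 and 1.83 in 326E. Slco1a4, a sinusoidal carrier of bile acids and other organic anions, stood at 14.4, 18.4 and 7.78 FPKM in chow, 13.9, 11.1 and 16 in vehicle and 0.926, 1.78 and 1.53 in 326E. Nnmt, which methylates nicotinamide, stood at 76.9, 154 and 124 FPKM in chow, 77.8, 69.7 and 102 in vehicle and 27, 15.2 and 42 in 326E. For these 4 genes vehicle was not called against chow, and every 326E library lay below every library of both groups. Asl, the urea cycle enzyme that releases arginine, belonged to the same class (-1.31 ± 0.18), alone among the urea cycle and amino acid genes.

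Of 20 fatty acid synthesis and desaturation genes, 5 rose, 5 fell and 10 did not pass, with a median of 0.17 under 326E and -0.94 in vehicle. With values scaled to total assigned reads, 10 rose and 3 fell. Acly, the enzyme that the series title names as a target, stood at 44.7, 45.8 and 40.8 FPKM in chow, 19.6, 17.1 and 25.6 FPKM in vehicle and 23.1, 22 and 21.8 FPKM in 326E. Vehicle and 326E overlapped, both below chow (-0.94 ± 0.14 for 326E, adjusted p = 0.00126), so its transcript stayed away from chow. Thrsp, a regulator of lipid synthesis, and Elovl3, an elongase, also stayed low, at -1.90 and -1.55. Scd1, which desaturates stearate to oleate, stood at 1219.9, 2354 and 1294 FPKM in chow, 24.9, 12.4 and 22.8 FPKM in vehicle and 1481, 2225 and 1633 FPKM in 326E. The 326E libraries overlapped with chow, and the difference of 0.18 ± 0.32 had a 95% interval of -0.55 to 0.90. Fasn, fatty acid synthase, was not called either (0.37 ± 0.16, 95% interval 0.00 to 0.74). The polyunsaturated desaturases rose above chow: Fads2 stood at 322, 219 and 289 FPKM in chow, 502, 444 and 482 FPKM in vehicle and 759.7, 796 and 787 FPKM in 326E (1.51 ± 0.15), and Fads1 rose by 0.68.

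Of 24 cholesterol synthesis and uptake genes, 1 rose, 1 fell and 22 did not pass, with a median of 0.20. Scaled to total assigned reads, 10 rose and 0 fell, with a median of 0.52. Sqle, squalene epoxidase, stood at 8.84, 14.7 and 12.4 FPKM in chow and 14.7, 10.5 and 10.9 FPKM in 326E, a difference of 0.02 ± 0.24 with a 95% interval of -0.53 to 0.57. Wide intervals such as this do not show equal levels. A stricter count took genes that the diet with vehicle changed, that 326E changed back, and whose 95% interval against chow lay within -0.5 to 0.5: 304 genes met it, 103 from above chow and 201 from below. Genes that passed 0.5 FPKM in vehicle alone could not enter the count from above chow. The whole count depended strongly on single libraries, from 101 without 326E replicate 2 to 295. Of the 9305 genes not called against chow, 5244 had an interval within these limits.

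Matrix genes were the first large group that stayed above chow. Of 32 collagens and matrix proteins, 27 rose, 2 fell and 3 did not pass, with a median of 1.03 under 326E and 1.44 in vehicle, and 5 members passed only through 1 group. Col1a1, a chain of type I collagen, stood at 1.85, 0.612 and 0.874 FPKM in chow, 23.1, 44.4 and 32.7 FPKM in vehicle and 17.8, 13.1 and 14.5 FPKM in 326E. All 326E libraries lay above chow (2.97 ± 0.26, adjusted p = 0.000123). Col3a1, the type III chain, stood at 5.17, 2.32 and 2.56 FPKM in chow and 29.2, 23.3 and 29.3 FPKM in 326E (2.75 ± 0.23). Fibronectin (Fn1) and Col18a1, both made by hepatocytes as well, were the 2 that fell, at -0.70 and -0.56, and both calls were lost in 9 settings.

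Of 26 matrix remodelling enzymes, 17 rose, 1 fell and 8 did not pass, with a median of 0.84, and 7 passed only through 1 group. Timp1, an inhibitor of matrix metalloproteases, stood at 0, 0.0869 and 0.205 FPKM in chow, 6.2, 10.3 and 9.41 FPKM in vehicle and 5.54, 2.99 and 4.21 FPKM in 326E (2.23 ± 0.21, adjusted p = 0.000158). Timp1 passed the filter only through the 326E libraries. Loxl2, which cross-links collagen, rose by 0.98. Of 22 stellate cell and myofibroblast markers, 14 rose and 0 fell, with a median of 0.89. Their summed level over the whole list was 51.7 to 67.8 FPKM in chow, 191 to 264 FPKM in vehicle and 129 to 161 FPKM in 326E, and its part in the collagen values was not tested. Acta2, the actin of activated stellate cells, rose by 1.83 ± 0.58 (adjusted p = 0.0423), a call that was lost in 9 of 20 other settings.

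Most single genes of recruited and lipid-associated macrophages stayed above chow. Of 29 markers of recruited and lipid-associated macrophages, 26 rose, 0 fell and 3 did not pass, with a median of 1.37 under 326E and 2.23 in vehicle. Of the 29, 8 passed the filter only through 1 group. Summed over the whole list, the level was 4889 to 5962 FPKM in chow, 6261 to 7520 FPKM in vehicle and 4946 to 6926 FPKM in 326E. The summed level in 326E thus overlapped with chow. Gpnmb, Mmp12 and Trem2, given next, added little to this sum in chow, so it rests on other members of the list. Gpnmb, a surface glycoprotein of macrophages that hold lipid, stood at 0.0476, 0.0237 and 0.0559 FPKM in chow, 107, 147 and 147 FPKM in vehicle and 64.2, 38.1 and 19.4 FPKM in 326E. The 326E libraries spread widely but all lay far above chow (5.16 ± 0.34, adjusted p = 4.32e-05). Mmp12, macrophage elastase, stood at 0.0107, 0.107 and 0.0629 FPKM in chow, 73.6, 78.5 and 93.8 FPKM in vehicle and 39, 20.7 and 25.1 FPKM in 326E (4.74 ± 0.20). Trem2, a lipid receptor, stood at 0.266, 0.343 and 0.11 FPKM in chow, 10.3, 13.9 and 14.2 in vehicle and 6.59, 3.03 and 2.16 in 326E (1.89 ± 0.28). Gpnmb, Mmp12 and Trem2 each passed the filter only through the 326E libraries. Of 18 markers of resident Kupffer cells, 6 rose and 12 did not pass, with a median of 0.18. Clec4f, the lectin that defines Kupffer cells, stood at 52.1, 55.4 and 53.5 FPKM in chow and 41.8, 38.6 and 80 FPKM in 326E, with overlapping libraries (-0.08 ± 0.28, 95% interval -0.72 to 0.56).

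Of 31 chemokines, cytokines and inflammasome genes, 19 rose, 1 fell and 11 did not pass, with a median of 0.85, and 10 passed only through 1 group. Ccl2, which attracts monocytes, stood at 1.09, 0.203 and 0.32 FPKM in chow, 26.9, 7.65 and 25.6 FPKM in vehicle and 7.16, 5.93 and 5.76 FPKM in 326E (2.28 ± 0.41, adjusted p = 0.00357). Il18, a cytokine that caspase-1 activates, was the 1 that fell (-0.52), a call that ended when scaled to total assigned reads. Antigen presentation genes rose in 11 of 13 cases, with a median of 1.0, and 2 passed only through 1 group. Cd74, the invariant chain of MHC class II, stood at 71.2, 58.2 and 51.8 FPKM in chow, 160.1, 346 and 266 FPKM in vehicle and 233, 255 and 142 FPKM in 326E (1.75 ± 0.30). The MHC class II chains H2-Aa, H2-Ab1 and H2-Eb1 rose by 1.89, 1.86 and 2.08. Of 28 interferon-stimulated genes, 10 rose, 1 fell and 17 did not pass. For lymphocytes, T and NK cell markers summed over the whole list to 4.48 to 5.43 FPKM in chow and 9.52 to 28.0 FPKM in 326E (4 of 6 genes taken rose, 3 passing only through 1 group), and B and plasma cell markers to 77.6 to 125 FPKM and 150 to 221 FPKM.

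**Figure D4:**
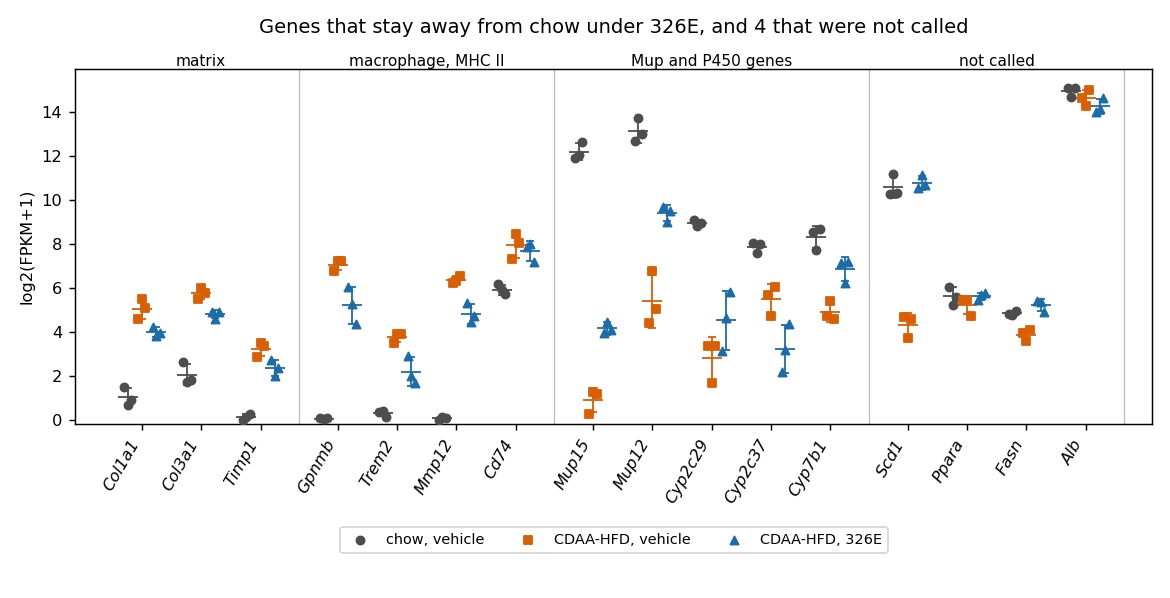
Level of matrix, macrophage and hepatocyte genes that stayed away from chow, and of 4 genes not called against chow (log2(FPKM+1) for each library, with mean and SD of 3 libraries per group). For Col1a1 and Gpnmb all 326E points lie above all chow points, for Mup15 and Cyp2c29 all lie below them, and for Scd1 the 326E and chow points overlap while vehicle lies far below.

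Of 34 xenobiotic P450 and conjugation enzymes, 21 fell, 4 rose and 9 did not pass, with a median of -0.92. Cyp2c29, an epoxygenase of arachidonic acid and drugs, stood at 549, 455 and 499 FPKM in chow, 9.21, 2.22 and 9.44 FPKM in vehicle and 7.84, 23.7 and 55.2 FPKM in 326E (-4.44 ± 0.64, adjusted p = 0.00124). Cyp2c37, a close relative, stood at 262, 194 and 252 FPKM in chow, 50.5, 25.5 and 65.7 in vehicle and 3.54, 8.04 and 19.3 in 326E (-4.64 ± 0.50). In both genes every 326E library lay below every chow library. Cyp2a4 and Cyp2b9 went strongly the other way. Cyp2a4, a steroid hydroxylase, stood at 0.267, 0.133 and 0.681 FPKM in chow, 10.5, 2.69 and 12.1 in vehicle and 25.9, 57.4 and 89.1 in 326E, and Cyp2b9 rose by 3.56 ± 0.96, a call lost in 8 settings. Cyp2a4 and Cyp2b9 are higher in female than in male mouse liver. Reads of the Cyp2a and Cyp2c copies may be split among near-identical genes.

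Major urinary proteins, lipocalins that male liver makes in great amounts under growth hormone pulses, fell furthest. Mup15 stood at 3881, 4230.3 and 6359 FPKM in chow, 0.198, 1.38 and 1.25 FPKM in vehicle and 14.3, 21.2 and 15.9 FPKM in 326E (-8.04 ± 0.29, adjusted p = 2.37e-06). Mup12 stood at 6598, 13786 and 8285 FPKM in chow and 819, 518 and 733 FPKM in 326E. Mup genes are near-identical copies, and their separate values are uncertain. Of 23 genes of the growth hormone and IGF axis, 12 fell, 3 rose and 8 did not pass, with a median of -0.60. Ghr, the growth hormone receptor, changed by -0.85. Hsd3b5, a male-biased steroid dehydrogenase, changed by -2.76, a call that ended with a pseudocount of 0.1.

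Bile acid genes fell in 15 of 25 cases, rose in 3 and did not pass in 7, with a median of -0.90. Cyp7b1, of the alternative route of synthesis, stood at 372, 214 and 412 FPKM in chow, 25.6, 41.8 and 23 FPKM in vehicle and 139.9, 74.1 and 144 FPKM in 326E (-1.47 ± 0.34), and quantile normalization ended its call. Slc10a1, the uptake carrier, and Abcb11, the export pump, changed by -1.97 and -1.19. Cyp7a1, the rate-limiting enzyme of the classic route, was not called (-1.30 ± 0.68, 95% interval -2.83 to 0.23). Among the 3 that rose is Abcb4 (0.81), the canalicular phospholipid floppase. It was changed under 326E alone, a placement lost in 13 of 19 settings.

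Of 24 urea cycle and amino acid genes, 0 rose and 16 fell, with a median of -0.72. Ass1 and Otc, urea cycle enzymes, changed by -1.32 and -1.25, and Hal, which degrades histidine, by -2.23. Of 27 methyl donor and choline genes, 13 fell, 4 rose and 10 did not pass, with a median of -0.19, which turned to 0.06 when scaled to total assigned reads. Gnmt, which disposes of excess methyl groups, stood at 861, 1286 and 883 FPKM in chow, 228, 193 and 288 FPKM in vehicle and 306, 221 and 311 FPKM in 326E (-1.84 ± 0.22). Bhmt, which uses betaine made from choline, changed by -1.47, and Psat1, of serine synthesis, rose by 1.54.

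Of 35 hepatocyte markers and secreted proteins, 20 fell, 1 rose and 14 did not pass, with a median of -0.67. The fibrinogen chains Fga and Fgg changed by -1.28 and -1.44, and Apom, an apolipoprotein of HDL, by -1.50. Apoa4, an apolipoprotein of fat transport, was the 1 that rose (2.72 ± 0.28). Alb was not called (-0.67 ± 0.31, 95% interval -1.38 to 0.04). The lower summed level of this list in 326E, given above, moves with the other hepatocyte lists, and its part in their values was not tested. Of 31 acute phase and complement genes, 14 fell and 1 rose, the interleukin-1 antagonist Il1rn (2.65). Their summed level spread widely in chow, at 6732 to 15078 FPKM, against 5336 to 6704 FPKM in 326E. Chow replicate 2 was the highest of the chow libraries in the median of this list. Of 29 unfolded protein and stress response genes, 13 fell, among them the chaperones Hsp90b1 (-1.25) and Calr (-1.10), and only the transcription factor Atf3 rose (2.90), a call that ended with a pseudocount of 5. With values scaled to total assigned reads, fewer genes fell in these lists: 13 hepatocyte, 9 acute phase and complement, 17 xenobiotic, 10 urea cycle, 11 bile acid and 5 stress response genes.

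Of 28 genes of glycolysis, gluconeogenesis and glycogen, 11 fell, 6 rose and 11 did not pass, and 3 passed only through 1 group. With values scaled to total assigned reads, 7 fell and 9 rose. Pklr, the liver pyruvate kinase, stood at 56.8, 55 and 66.3 FPKM in chow, 17.4, 24.4 and 22.2 FPKM in vehicle and 14.1, 15.4 and 17.9 FPKM in 326E (-1.85 ± 0.14), while Pkm, the form of most other cells, rose by 1.69 ± 0.18. The hexokinases Hk2 and Hk3 rose by 0.54 and 1.37. Hk3 and Pkm are high in macrophages, whose markers rose as well, and their part in these values was not tested.

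Cell cycle genes rose in 14 of 26 cases and fell in none, with a median of 0.41, and 8 of the 26 passed only through 1 group. Ccnd1, cyclin D1, stood at 8.64, 2.92 and 4.39 FPKM in chow, 26, 26.8 and 39.6 FPKM in vehicle and 21.4, 27.4 and 24.4 FPKM in 326E (2.10 ± 0.30). Mki67, a marker of dividing cells, rose by 0.95 ± 0.10. Cell cycle inhibitors and p53 targets rose in 8 of 18 cases, 2 of the 18 passing only through 1 group, with Cdkn1a, the inhibitor p21, at 0.24, 0.869 and 0.384 FPKM in chow, 15, 9.76 and 10.9 in vehicle and 4.33, 2.68 and 1.75 in 326E. Of 25 NRF2 and antioxidant genes, 10 rose and 3 fell, with a median of -0.08 under 326E and 0.55 in vehicle. Summed over the whole list, they stood at 1354 to 2461 FPKM in chow and 1173 to 1312 FPKM in 326E. Hmox1, heme oxygenase (1.42), and Gpx3, a secreted glutathione peroxidase (1.52), were among the higher. Immediate early genes rose in 3 of 19 cases (15.8%, near the 14.7% of all genes), with a median of 0.76 under 326E and 2.72 in vehicle. Of these 19, 2 passed only through 1 group. Clock genes rose in 2 and fell in 4 of 17 cases (35.3% called, against 28.1% of all genes). Endothelial markers rose in 9 of 24 cases with a median of 0.23, neutrophil markers in 2 of 5, and triglyceride assembly genes rose in 5 and fell in 1 of 14 cases. Markers of fat, muscle, pancreas and blood rose in 1 and fell in 1 of 11 cases (18.2% called, against 28.1% of all genes).

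**Figure D5:**
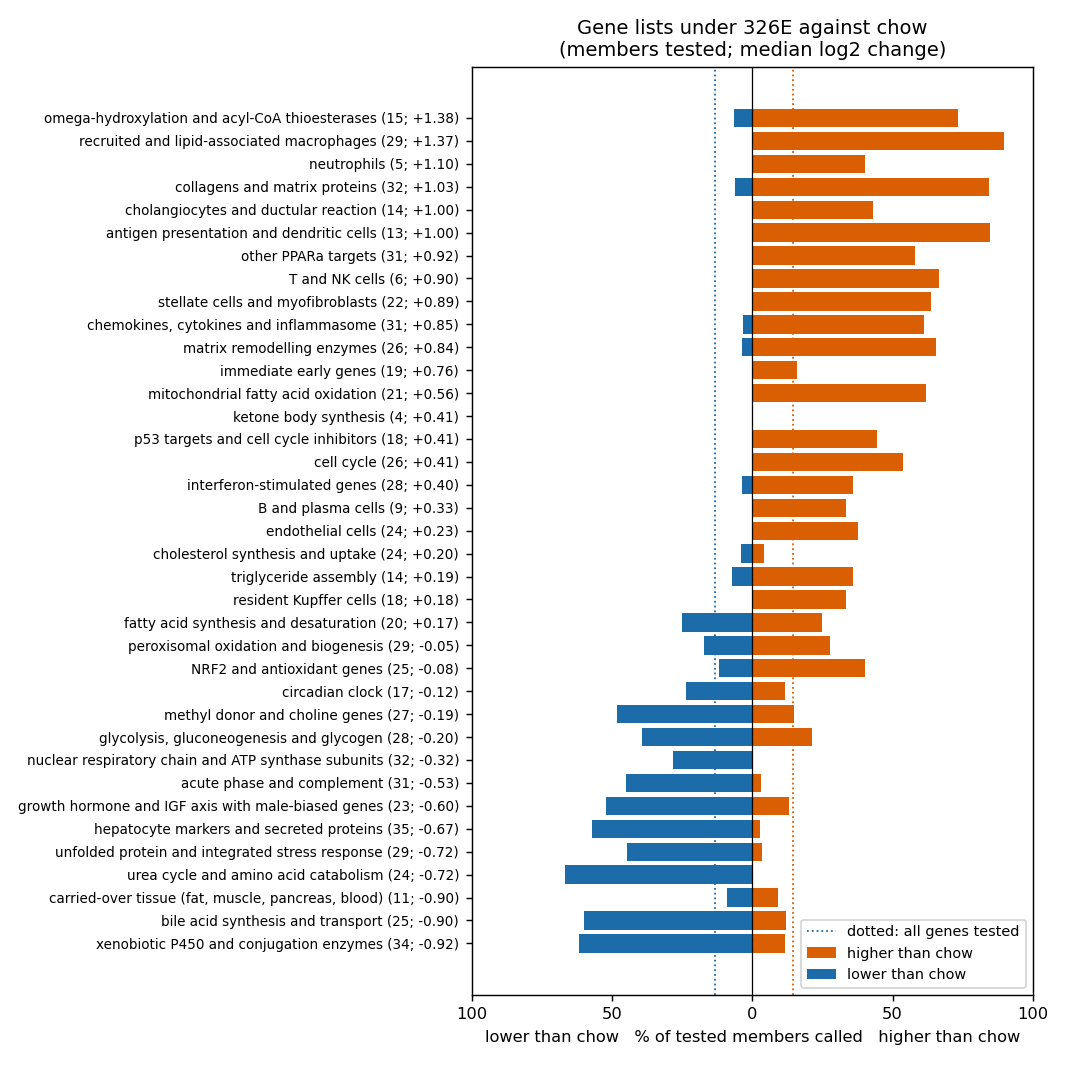
Share of the genes taken in each list that were called higher or lower in 326E than in chow, in percent, with dotted lines at the shares of all genes, 14.7% and 13.5%. Recruited macrophage, matrix, antigen presentation and omega-hydroxylation lists lie far to the higher side. Urea cycle, xenobiotic, bile acid and hepatocyte lists lie to the lower side.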

How the data were processed

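Poly(A)-selected liver RNA was sequenced in 9 libraries. The submitters' processing notes name HISAT2, featureCounts and mm10. Their versions and the strand setting are not given in the sources used here, which leaves values of overlapping and antisense genes uncertain. The deposited values are FPKM per gene. After multiplication by gene length, 100% of values lay within 0.01 of a whole read, and the authors' library sizes equal median-of-ratios sizes. For a gene of 2 kb, 1 read is worth 0.0246 to 0.0455 FPKM.

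Genes with 0.5 FPKM in 3 of 6 libraries were fitted as log2(FPKM+1) in limma 3.58.1 (R 4.3.3) with a variance trend, as 1 fit of all 9 libraries with 6 residual degrees of freedom. Calls needed an adjusted p under 0.05. Tables and plots used Python 3.11.15, pandas 2.3.3, numpy 2.4.6 and matplotlib 3.10.9. The script was tested on simulated data. The genes, the 37 gene lists and the placements were chosen with earlier results of these data known.

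Named genes were, among called protein-coding genes without overlap and with a group mean of 1 FPKM or more, the 10 with the largest rise and fall, the 5 largest in each placement and direction, the 5 largest diet changes in each direction among genes back at chow, the 3 called list members with the largest change, and a fixed set (Acly, Ppara, Scd1 and others) whatever their values; some are left out for length. Other list members are named as examples of their list, chosen after their values were seen. Alternatives were other pseudocounts, filters, scalings, variance models, whole reads with voom, a block for the replicate number, and leaving out single libraries. The reported values use all libraries. For a few single genes no result is given here.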

Additional observations from a re-analysis of the deposited data

How the results depend on the processing

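Of 128 called named genes, 101 kept the call in every setting that tested them (19 or 20 settings) and 27 lost it in at least 1, and 11 of 19 named genes that were not called gained a call in at least 1. Back at chow counted 695 genes with a pseudocount of 5, 457 with quantile normalization and 518 with array weights, against 304. Genes past chow and lower numbered 3 without the filter, 4 with quantile normalization and 11 with array weights, and those lower under 326E alone 34 without the filter and 122 with array weights. Array weights also gave 2618 lower calls and 215 genes higher under 326E alone. Scaled to total assigned reads, 3838 genes were higher and 599 lower, 3046 higher and 439 lower away from chow, 222 higher under 326E alone and 190 back at chow; 96 of the 3642 called genes changed sign, and 6 of 31 genes past chow and 114 of 201 changed under 326E alone were kept.

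Leaving out 1 library at a time gave 1065 to 1741 lower calls, 897 to 1268 lower away from chow, 8 to 19 higher and 1 to 8 lower past chow, 78 to 142 higher and 16 to 72 lower under 326E alone, and 101 to 295 back at chow. Which library decided a count differed: 326E replicates 1 and 2 for the lower calls, and chow replicates 1 and 3 for genes past chow. The cause was not tested. The medians of the NRF2, clock, glycolysis, methyl donor, respiratory chain and peroxisomal lists changed sign in at least 1 setting. voom on whole reads called 3663 genes and the 6 libraries alone 3621. Same-numbered libraries did not deviate together (correlation -0.25 to 0.037). Low correlations cannot show that the numbers carry no pairing or batch, and the labels state none. With the number as a replicate block 3118 genes were called, with 15 higher and 3 lower past chow and 174 back at chow.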

Other observations

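These families were looked at after the values were seen. Histone genes of cluster 1, summed, were higher in 326E than in either other group. Of 17 genes taken, 12 rose and 0 fell, with a median of 0.74 under 326E and 0.15 in vehicle. The 326E median ranged from 0.21 to 1.87 over the other settings. Hist1h3b, Hist1h3c, Hist1h4c, Hist1h4j and Hist1h1d lost their placement under 326E alone when a mean of 1 FPKM was required. Members that passed only through 1 group were not counted for these families. The summed histone level was 208, 168 and 178 FPKM in chow, 195, 199.8 and 143 FPKM in vehicle and 332, 304 and 316 FPKM in 326E. Hist1h4h alone went from 3.13, 3.61 and 4.26 FPKM in chow and 3.77, 7.96 and 2.96 FPKM in vehicle to 26.3, 18 and 15.1 FPKM in 326E (2.13 ± 0.30, limma adjusted p = 0.00104). Most histone transcripts carry no poly(A) tail and the libraries were poly(A)-selected, so these values hold only the selected part.

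Both ribosomal RNAs of the mitochondrial genome fell beyond vehicle. Summed, they stood at 1391, 1367 and 1827 FPKM in chow, 1026, 759.6 and 1081 FPKM in vehicle and 465, 434.5 and 456 FPKM in 326E, and mt-Rnr2 changed by -1.90 ± 0.17. The 13 protein genes of that genome had a median of -0.47, which ranged from -0.63 to 0.21 over the other settings, and 12 of 16 transfer RNAs fell. With poly(A) selection and the strand setting not stated, the ribosomal and transfer RNA values do not measure the total of these RNAs. All 12 called Cyp2c genes of 13 taken fell, and 14 of 20 Mup genes fell while Mup6 rose, from 0.62, 0.154 and 0.273 FPKM in chow to 12, 7.75 and 12.2 FPKM in 326E.

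Gm15441, which overlaps Txnip on the opposite strand (chromosome 3, 96555765 to 96566801, with Txnip at 96557957 to 96561883), stood at 0.139, 0.0921 and 0.272 FPKM in chow, 3.06, 2.35 and 0.519 FPKM in vehicle and 75.9, 81.8 and 79.7 FPKM in 326E. Txnip was not called (0.21 ± 0.62), and with the strand setting not stated, the split of reads between these genes is uncertain. Farther below chow than vehicle were Slc22a7, an organic anion carrier, at 24.9, 32.8 and 24.4 FPKM in chow, 6.98, 6.23 and 6.41 in vehicle and 2.29, 1.37 and 1.9 in 326E, and Rgs16, a brake on G protein signalling, at 42.5, 52.2 and 39.1, 8.89, 26.3 and 14.8 and 1.89, 6.91 and 3.22 FPKM. The receptors Il6ra and Il1r1, for interleukin 6 and interleukin 1, were lower under 326E alone, at -1.14 and -1.08. Of 19 settings, Il6ra lost this placement in 1 and Il1r1 in 10.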
